A study of Drosophila melanogaster with 14 samples.

Results

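The proximal 5 Mb of the right arm of Drosophila chromosome 3 (3R) adjoin the centromere and are labelled pericentromeric heterochromatin. The stretch was taken by position alone, as every window on 3R that starts below base 5000000 in the dm6 build. It holds 5001 of the 139491 windows in the deposited table, and 500 of 13758 bins after averaging into 10 kb (3.63%). All 500 bins had enough signal to be tested. Heterochromatin is compact, repeat-rich chromatin marked by methylated histone H3 and heterochromatin protein, and in dividing cells it usually copies its DNA late in S phase. Drosophila heterochromatin nevertheless holds essential genes, many with very large introns made of transposon remnants, and these genes are known to be expressed from within it.

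Repli-seq was run on 2 kinds of nuclei sorted from testis tumours. GSC-like nuclei came from y[1] w[1118] P{hs70FLP} flies in which a nanos GAL4::VP16 driver, active in the germline, expressed the JAK-STAT ligand Upd. CySC-like nuclei came from w[1118] flies in which a traffic jam GAL4 driver, active in somatic cyst cells, expressed Upd. Both kinds carried UAS-FRT-H3-GFP-FRT-H3-mKO, so nuclei of either driver's lineage were sorted by the GFP-tagged histone. Each preparation pooled 100 to 200 pairs of testes, and both kinds are tumours. After a 15 minute BrdU pulse, DNA content served to sort nuclei into 4 successive parts of S phase, from early (E) through early-mid (EM) and then late-mid (ML) to late (L), and DNA carrying BrdU was pulled down and sequenced. All 4 fractions were used from both GSC-like replicates and from CySC-like replicate 2, and E and L from CySC-like replicate 1. These 14 libraries come from 4 biological replicates.

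Values are in RPKM, reads scaled by window length and library size, rescaled so that every library has the same mean. Timing is the log2 ratio of E over L, so a value above 0 means more signal in early S phase and a value below 0 more in late S phase. The GSC-like replicate 1 libraries hold 49.1 to 86.2 M reads, those of GSC-like replicate 2 (paired-end, the rest single-end) 0.516 to 7.05 M, and the CySC-like libraries 74.1 to 144 M. The median bin of the stretch had 314 reads in E and 245 in L of GSC-like replicate 2, against 2215 to 7714 in the E and L libraries of the other replicates. The counting error of that bin is 0.081 and 0.092 on the log2 scale in E and L of GSC-like replicate 2, and at most 0.031 in E and L of the other replicates. In CySC-like replicate 2 the library labelled ML resembled E (Spearman 0.80 across 13746 bins) and the library labelled EM resembled L (0.81), whereas ML resembled L in GSC-like replicates 1 and 2 (0.65 and 0.61). The order of those 2 CySC-like libraries is therefore uncertain, and the timing values below rest on E and L alone. How reads that match several places were treated is not given in the sources used here, and it bears on tandem arrays.

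A tract of the unit TAA lies in an early island described below, inside an intron of Myo81F. A piece of it is shown from RefSeq's dm6 assembly, 3R:2012484-2012583, plus strand, with the run of at least 8 units in capitals. Shorter runs of the unit are left in lower case.
TAA: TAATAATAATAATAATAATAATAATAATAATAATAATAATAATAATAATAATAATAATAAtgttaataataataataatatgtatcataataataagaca

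Searched on both strands, runs of at least 8 TAA units cover 5955 bases and reach 100 bases in 14 bins here and in 28 of 13758 bins of the genome (0.204%).

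The stretch replicated late over its first 4 Mb and early or near the mean beyond. In the Mb next to the centromere, GSC-like replicates 1 and 2 had a mean log2(E/L) of -0.94 and -1.84, against -0.99 and -0.83 in CySC-like replicates 1 and 2. In the 2nd Mb it was -1.01 and -1.59 in GSC-like nuclei, against -0.91 and -0.45 in CySC-like nuclei. In the 3rd Mb it was -0.87 and -1.13 in GSC-like nuclei, against -0.97 and -0.49 in CySC-like nuclei. All 4 replicates were below 0 in each of these Mb, with GSC-like replicate 2 the lowest throughout. In the 4th Mb the values were -0.71 and -1.06 in GSC-like nuclei, against -1.20 and -0.94 in CySC-like nuclei. In the 5th Mb they were 0.20 and 0.81 in GSC-like nuclei, against 0.16 and 0.26 in CySC-like nuclei. Every replicate was above 0 in the 5th Mb and below 0 in each of the first 4.

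**Figure D1:**
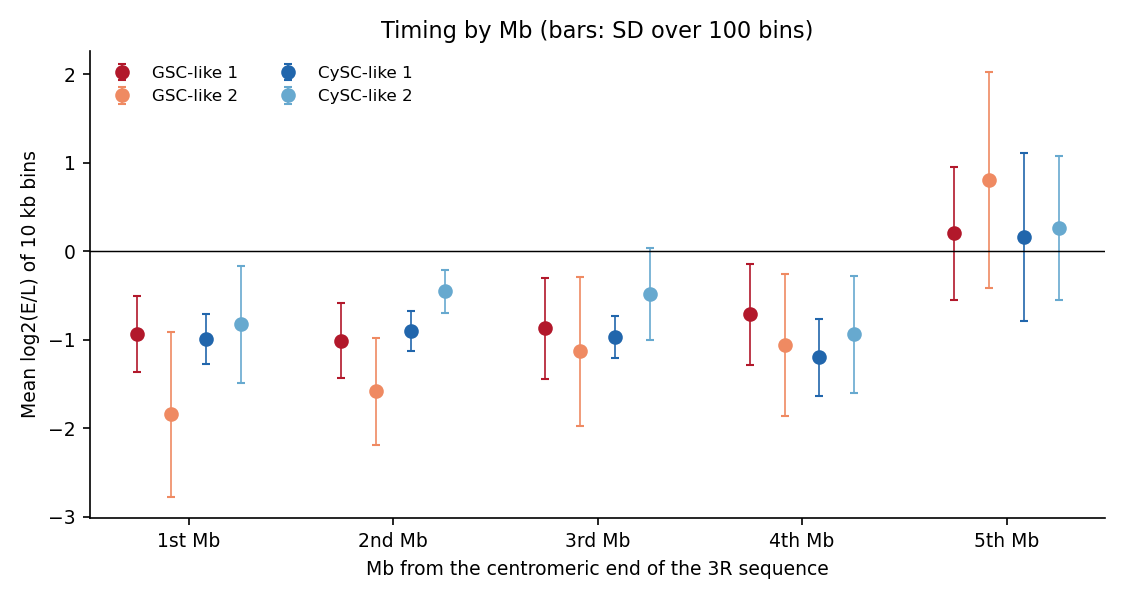
Mean log2(E/L) of 10 kb bins in each Mb from the centromeric end of the 3R sequence, 1 point per biological replicate, with bars for the SD over 100 bins. All 4 replicates lie below 0 in Mb 1 to 4 and above 0 in Mb 5.

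The first 4 Mb minus the 5th Mb was -1.09 and -2.21 in GSC-like replicates, against -1.18 and -0.94 in CySC-like replicates, a mean of -1.35 ± 0.58 (SD, n = 4). The direction was the same in 4 of 4 replicates. An exact two-sided sign permutation over 4 replicates gave p = 0.125, the smallest that 4 replicates allow, and 0.25 after Benjamini-Hochberg adjustment over 4 such comparisons. The 2 kinds of nuclei overlapped in this difference (exact permutation p = 0.667). Of the 400 bins of the first 4 Mb, 359 (89.75%) were below 0 in all 4 replicates, against 24.3% of all bins, and 1 (3R:3740001-3750000, at Tim17b) was above 0 in all 4. Of the 100 bins of the 5th Mb, 48 were above 0 in all 4.

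The annotation changes with the timing. Protein-coding genes start 1, 0, 0 and 7 times in Mb 1 to 4 and 94 times in Mb 5. Coding exons, meaning here all exons of protein-coding genes with their untranslated parts, cover 0.0625% to 1.57% of Mb 1 to 4 and 26.3% of Mb 5. The reference's repeat masking covers 58.3%, 40.9%, 38.0%, 40.1% and 21.0% of the 5 Mb in order. Locally repeated sequence, defined as bases in a word of 31 found again within 20 kb, covers 24.1% to 40.9% of Mb 1 to 4 and 3.46% of Mb 5. The label heterochromatin thus suits the sequence of the first 4 Mb, and the gene-rich bins at the outer end are described apart from it.

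The change was concentrated at 1 place in 3 replicates. Comparing 100 kb on either side of every bin edge, the largest increase lay at 3R:4170000 in GSC-like replicates 1 and 2 (1.49 and 2.23) and in CySC-like replicate 2 (1.47). CySC-like replicate 1 had its largest increase at 4330000 (1.22) and one of 0.66 at 4170000. The last 10 kb before the step had log2(E/L) of -1.72 and -1.76 in GSC-like nuclei, against -0.60 and -1.63 in CySC-like nuclei. The first bin beyond the step had 0.56 and -0.20 in GSC-like nuclei, against -1.04 and -0.31 in CySC-like nuclei. The next bin out had 0.47 and 0.86 in GSC-like nuclei, against -1.23 and 0.64 in CySC-like nuclei. CySC-like replicate 1 alone was still late there. An assembly gap of 100 bases lies within the first bin beyond the step, at 3R:4174179-4174278. The step was located from these profiles, so its size carries no test.

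**Figure D2:**
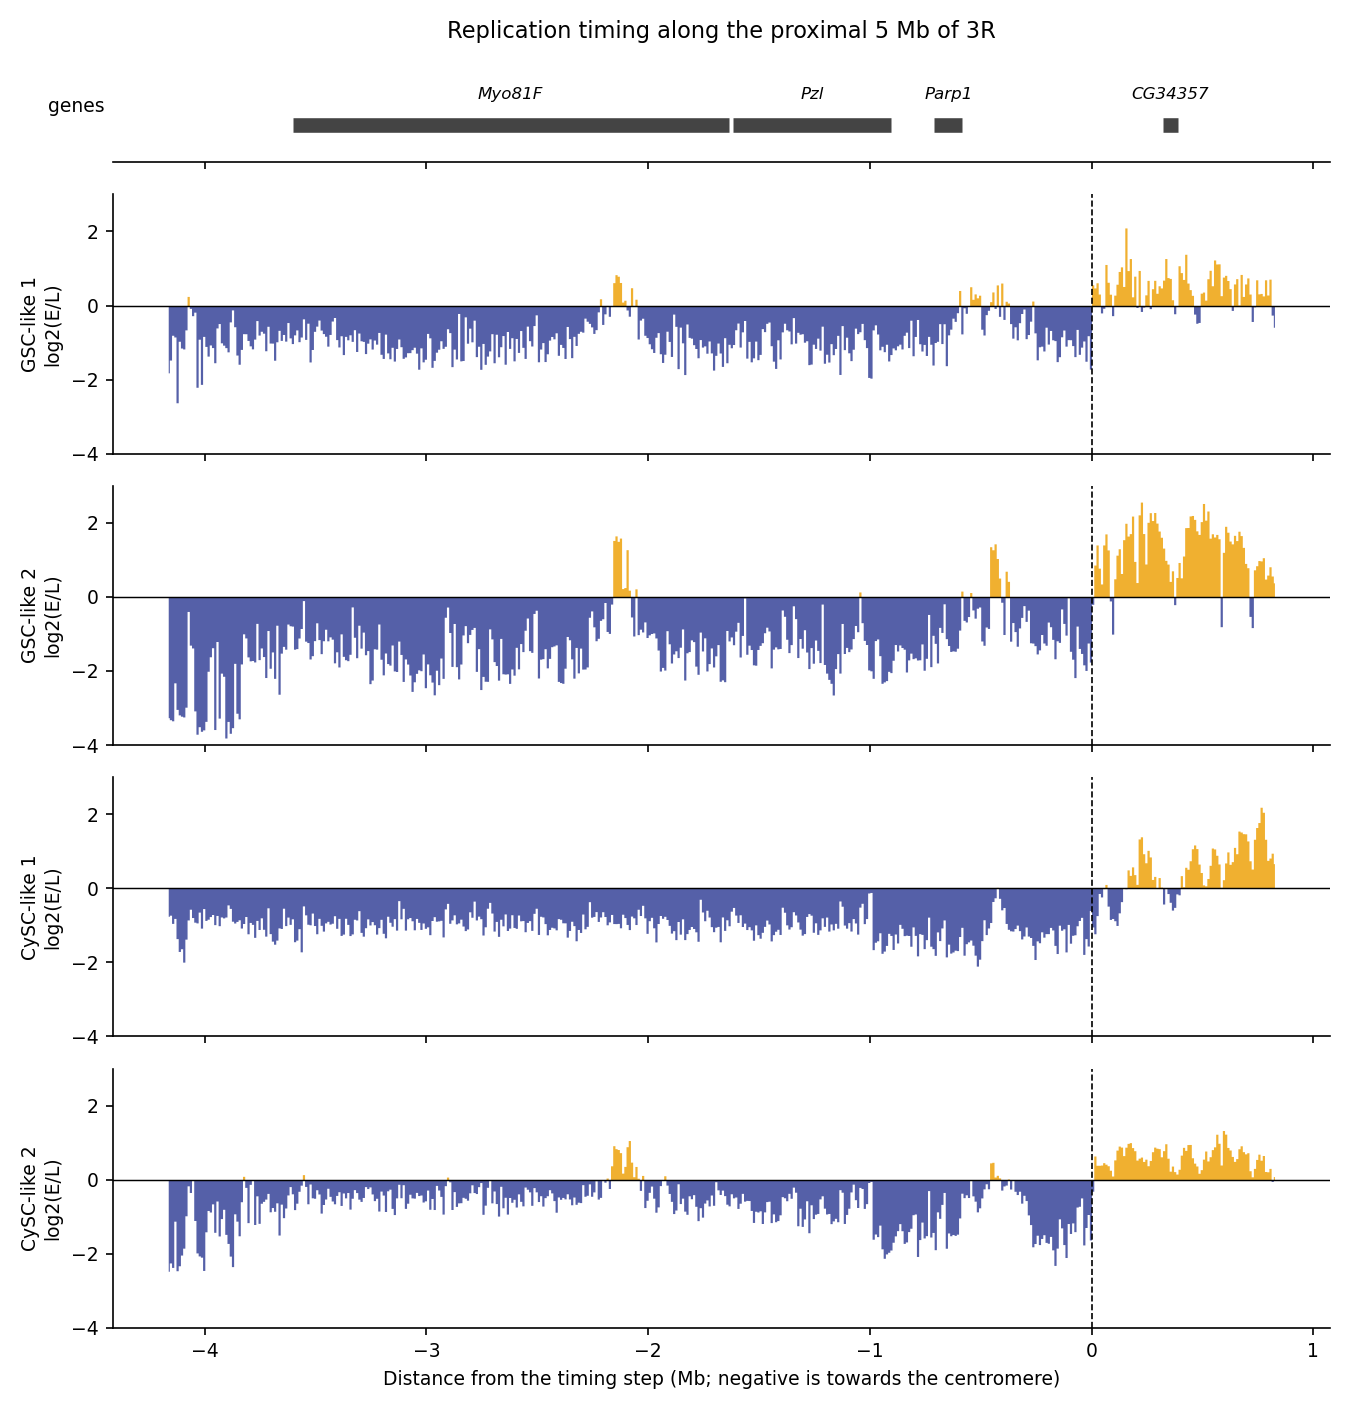
Log2(E/L) in 10 kb bins of the proximal 5 Mb of 3R against distance from the timing step, with GSC-like replicates above CySC-like replicates and the spans of 4 large genes on top. Early bins are yellow and late bins blue, and the dashed line is the step, where log2(E/L) increased by 1.49 and 2.23 in GSC-like replicates and by 0.66 and 1.47 in CySC-like replicates.

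Fine structure within the first 4 Mb was shared to different degrees between replicates. Across its 400 bins Pearson's r was 0.63 between the GSC-like replicates, 0.45 between the CySC-like replicates, and for mixed pairs lowest between GSC-like replicate 1 and CySC-like replicate 1 (-0.001) and highest between GSC-like replicate 2 and CySC-like replicate 2 (0.60). The order of pairs depends on the measure, since Spearman's rho was 0.49 between the CySC-like replicates and 0.44 for that last mixed pair. Log2(E/L) had r of -0.15 and -0.53 with GC content in GSC-like nuclei, against -0.15 and -0.64 in CySC-like nuclei. Over the outermost 349 of these bins it was -0.03 and -0.18 in GSC-like nuclei, against -0.32 and -0.44 in CySC-like nuclei, so the value of GSC-like replicate 2 rests largely on the bins nearest the centromere. Neighbouring bins are not independent, so these are descriptions without a p.

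Of the 50 stretches of 100 kb, ranked by the mean of the 4 replicates, the first (3R:1-100000) was the latest, with log2(E/L) of -1.13 and -2.83 in GSC-like nuclei, against -1.22 and -1.80 in CySC-like nuclei. The next (3R:100001-200000) was also among the 3 latest, with -1.02 and -2.72 in GSC-like nuclei, against -0.79 and -1.32 in CySC-like nuclei. Neither holds a coding exon. Repeat masking covers 88.8% and 85.0% of these 2 stretches and locally repeated sequence 78.6% and 70.3%, with 56.6% and 49.9% GC. The unknown treatment of reads that match several places thus bears on their values. The first was the latest stretch in GSC-like replicate 2 and CySC-like replicate 2 but not in the other replicates, where the lowest values were -1.27 (3R:1100001-1200000, GSC-like replicate 1) and -1.52 (3R:3600001-3700000, CySC-like replicate 1). The other of the 3, 3R:3200001-3300000, holds the start of Pzl, with -1.16 and -1.81 in GSC-like nuclei, against -1.45 and -1.72 in CySC-like nuclei. The 3 earliest stretches all lay beyond the step. 3R:4700001-4800000, which holds the start of atms, had 0.79 and 1.37 in GSC-like nuclei, against 0.69 and 0.92 in CySC-like nuclei. 3R:4300001-4400000 had 0.76 and 1.58 in GSC-like nuclei, against 0.43 and 0.78 in CySC-like nuclei. 3R:4600001-4700000, with the start of smash, had 0.17 and 2.08 in GSC-like nuclei, against 0.61 and 0.56 in CySC-like nuclei. All 4 replicates were above 0 in each.

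A pair of early islands interrupted the late block, both picked out after the profile was seen. The first, 3R:2010001-2050000, lies wholly in an intron of Myo81F and holds no coding exon. Its 4 bins averaged 0.72 and 1.57 in GSC-like nuclei, against -0.98 and 0.83 in CySC-like nuclei. CySC-like replicate 1 was late like its surroundings, and the other 3 replicates were early. The 20 bins on the centromeric side had -0.53 and -1.16 in GSC-like nuclei, against -0.89 and -0.32 in CySC-like nuclei. The island is 34.1% GC and 90.5% locally repeated, with copies most often 7398 bases apart, and its 28 TAA tracts hold 38.1% of the TAA tract bases of the whole stretch. Its mean signal in E was 9.54 and 25.8 RPKM in GSC-like nuclei, against 1.76 and 6.31 RPKM in CySC-like nuclei. In L it was 5.79 and 8.66 RPKM in GSC-like nuclei, against 3.57 and 3.53 RPKM in CySC-like nuclei.

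By contrast, the median of the 413 other bins up to the step was 3.93, 5.44, 8.41 and 7.57 RPKM from E to L in GSC-like replicate 1, and 3.81, 5.89, 8.17 and 10.4 RPKM in GSC-like replicate 2. Both GSC-like replicates thus had less signal in E and EM than in ML and L outside the island.

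**Figure D3:**
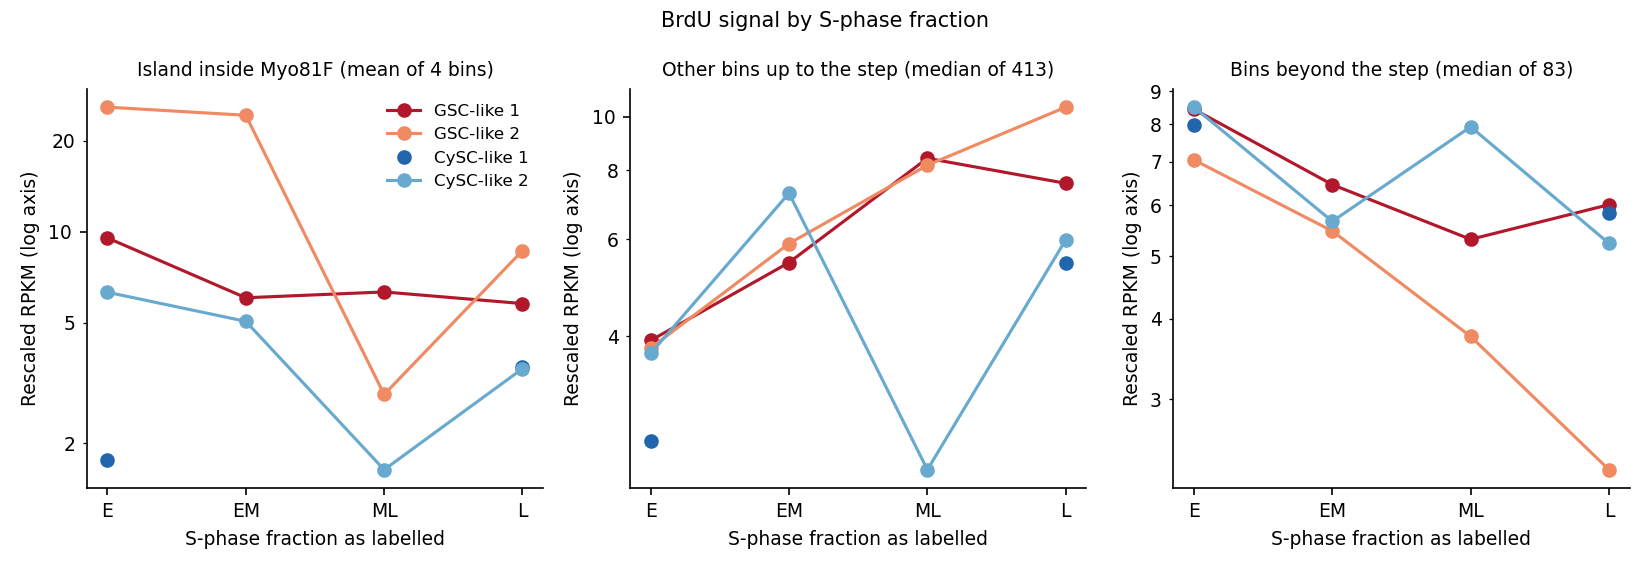
Rescaled RPKM (log axis) in the fractions labelled E, EM, ML and L for the island, the other bins up to the step and the bins beyond it, 1 colour per biological replicate, with no EM or ML point for CySC-like replicate 1. Island points are means of 4 bins, and the other points are medians over bins. In the other bins up to the step, GSC-like signal is higher in ML and L than in E; beyond it, E is the highest fraction in GSC-like replicates.

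Locally repeated sequence was not early in general. Its share was at most weakly related to log2(E/L) over the 400 bins of the first 4 Mb. Pearson's r was 0.09 and -0.18 in GSC-like nuclei, against -0.09 and -0.16 in CySC-like nuclei. A tandem array inside Parp1, 3R:3530001-3570000, is 95.5% locally repeated with copies most often 5801 bases apart, and its 4 bins averaged -0.40 and -1.45 in GSC-like nuclei, against -1.71 and -1.49 in CySC-like nuclei. The second early island, 3R:3710001-3750000, spans Tim17b, a subunit gene of the mitochondrial inner membrane translocase. It averaged 0.24 and 1.28 in GSC-like nuclei, against -0.38 and 0.28 in CySC-like nuclei. As at the first island, CySC-like replicate 1 alone was below 0. The stretch around Alg-2, 3R:3590001-3670000, averaged 0.15 and -0.40 in GSC-like nuclei, against -1.69 and -0.50 in CySC-like nuclei.

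Among the genes, 8 protein-coding genes start in the first 4 Mb, 3 between there and the step, and 91 between the step and 5 Mb. Their values are those of the 10 kb bin that holds the gene's start. Of the 8 genes of the first 4 Mb, Myo81F, Pzl, spok and CG41099 were below 0 in all 4 replicates and none was above 0 in all 4. Median values of log2(E/L) were -0.62 and -0.34 in GSC-like nuclei, against -1.10 and -0.34 in CySC-like nuclei. The 3 genes just before the step, CG42402, Gfat1 and CG40198, were below 0 in all 4 replicates. Of the 91 genes beyond the step, 48 (52.7%) were above 0 in all 4 and none was below 0 in all 4, against 49.1% and 8.41% of 13968 coding genes. Their medians were 0.47 and 1.64 in GSC-like nuclei, against 0.66 and 0.52 in CySC-like nuclei. The medians of all coding genes were 0.34 and 1.36 in GSC-like nuclei, against 0.56 and 0.39 in CySC-like nuclei.

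Myo81F (FBgn0267431, 3R:567076-2532932, plus strand), an unconventional myosin gene, spans 1966 kb and is the longest gene in the stretch. Its start had -1.03 and -0.79 in GSC-like nuclei, against -0.82 and -0.38 in CySC-like nuclei. Averaged over the whole gene, it had -0.92 and -1.37 in GSC-like nuclei, against -0.94 and -0.40 in CySC-like nuclei, so the gene body was late in all 4 replicates despite the island in its intron.

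Pzl (FBgn0267430, 3R:2554162-3263582, minus strand), which encodes a relative of the mechanosensitive Piezo channel, spans 709 kb. Its start was among the latest of any gene here, at -1.32 and -2.04 in GSC-like nuclei, against -1.27 and -1.90 in CySC-like nuclei. It passed the limma test for more L than E signal in both kinds (adjusted p = 0.0114 in GSC-like nuclei, against 0.0215 in CySC-like nuclei, n = 2 each). spok (FBgn0086917, 3R:3322810-3354486, plus strand), a cytochrome P450 gene of ecdysone synthesis, had -0.81 and -1.41 in GSC-like nuclei, against -1.28 and -1.72 in CySC-like nuclei. It passed in CySC-like nuclei (limma adjusted p = 0.0262) and had an adjusted p of 0.0562 by limma in GSC-like nuclei. The difference between the kinds was 0.39 with SE 0.64 (limma adjusted p = 0.890).

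Parp1 (FBgn0010247, 3R:3461351-3587054, minus strand), the poly(ADP-ribose) polymerase gene, had a start less late than its body in 3 of 4 replicates. Its start bin had -0.77 and 0.16 in GSC-like nuclei, against -1.05 and -0.36 in CySC-like nuclei, whereas its body averaged -0.64 and -1.07 in GSC-like nuclei, against -1.45 and -1.19 in CySC-like nuclei. Alg-2 (FBgn0086378, 3R:3623143-3627690, plus strand), a penta-EF-hand calcium-binding protein gene, had 0.51 and 0.12 in GSC-like nuclei, against -1.40 and -0.005 in CySC-like nuclei. Both GSC-like values were above both CySC-like values, but 1 of the CySC-like values was practically 0, and the difference of 1.01 (SE 0.64) did not pass the limma test (adjusted p = 0.626). It was 0.32 without CySC-like replicate 1 and 1.71 without CySC-like replicate 2. Tim17b (FBgn0263977, 3R:3734855-3745306, plus strand) had -0.08 and 1.43 in GSC-like nuclei, against -0.26 and 0.07 in CySC-like nuclei. CG41128 (FBgn0069923, 3R:3750363-3752353, plus strand) had -0.29 and 0.51 in GSC-like nuclei, against -0.27 and 0.05 in CySC-like nuclei. Replicates of each kind lay on both sides of 0 at these 2 genes, and the kinds overlapped.

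Just inside the step, CG42402 (FBgn0259821, 3R:4077939-4104326, plus strand) had -0.92 and -1.47 in GSC-like nuclei, against -1.48 and -1.45 in CySC-like nuclei, with limma adjusted p of 0.0366 and 0.0239. Gfat1 (FBgn0287209, 3R:4126442-4137882, plus strand), the first enzyme gene of the hexosamine pathway, had -1.12 and -1.53 in GSC-like nuclei, against -0.78 and -0.49 in CySC-like nuclei. It passed the limma test for more L than E signal in GSC-like nuclei (adjusted p = 0.0125) and had an adjusted p of 0.226 by limma in CySC-like nuclei. At this start bin both GSC-like values were below both CySC-like values, and the difference of -0.69 (SE 0.52) had a limma adjusted p of 0.717. Averaged over the gene body, Gfat1 had -1.04 and -1.68 in GSC-like nuclei, against -1.28 and -1.13 in CySC-like nuclei. The kinds overlapped there.

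Beyond the step, 5 further genes were long enough to be named. ctrip, a ubiquitin ligase gene of the circadian clock, had 0.58 and 1.66 in GSC-like nuclei, against 1.11 and 0.50 in CySC-like nuclei. Cdep, a FERM-domain gene, had 0.69 and 0.84 in GSC-like nuclei, against 1.64 and 0.55 in CySC-like nuclei. These 2 were above 0 in all 4 replicates. smash, a regulator of epithelial cell junctions, had -0.46 and 1.69 in GSC-like nuclei, against 0.66 and 0.17 in CySC-like nuclei. atms, a Paf1 complex gene, had 0.27 and -0.80 in GSC-like nuclei, against 0.03 and 0.40 in CySC-like nuclei. CG34357 had -0.004 and 0.53 in GSC-like nuclei, against -0.15 and 0.15 in CySC-like nuclei. At the start bin of each of these 3, replicates of the GSC-like nuclei lay on opposite sides of 0. Their gene bodies were above 0 in both GSC-like replicates. Averaged over the body, smash had 0.37 and 1.99 in GSC-like nuclei, against 0.46 and 0.53 in CySC-like nuclei. The body of atms had 0.62 and 0.77, against 0.32 and 0.99, and that of CG34357 had 0.48 and 0.66, against -0.31 and 0.47.

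**Figure D4:**
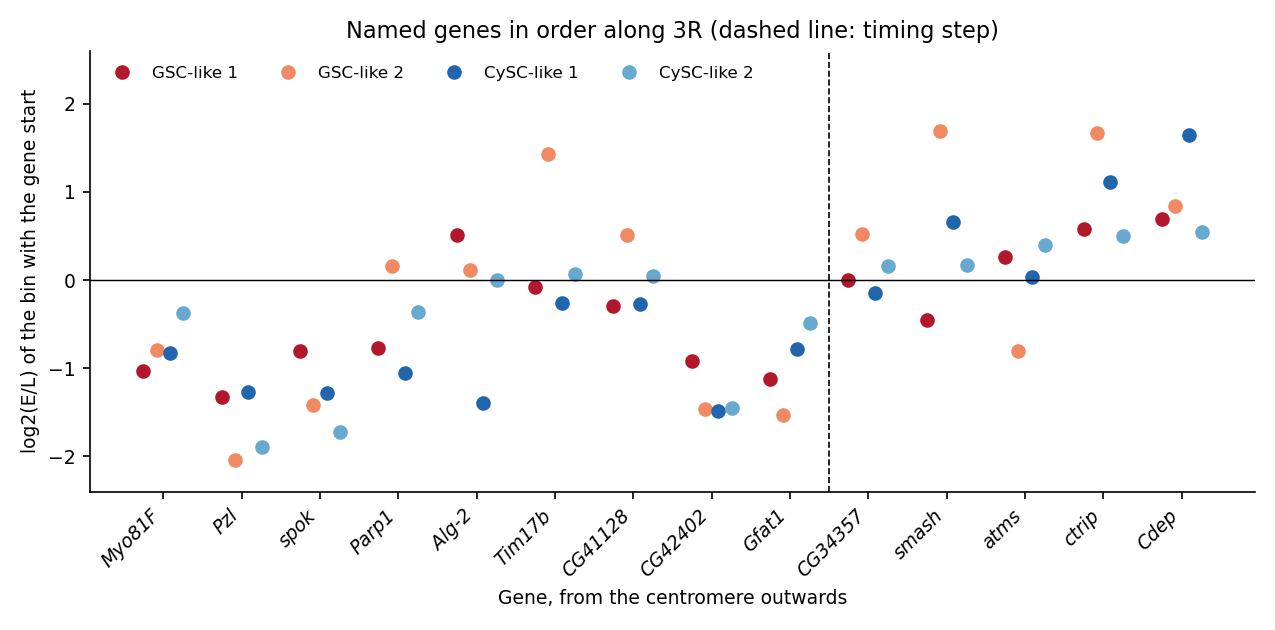
Log2(E/L) of the 10 kb bin with the start of each named gene, in order from the centromere outwards, 1 point per biological replicate. The dashed line is the timing step; Myo81F, Pzl, spok, CG42402 and Gfat1 lie below 0 in all 4 replicates, and ctrip and Cdep above 0 in all 4.

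In the first 4 Mb, bins with and without a coding exon were both late. The bodies of Myo81F and Pzl span 198 and 72 of its 400 bins. Bins without a coding exon thus include introns and are not gene-free sequence. The 43 bins of the first 4 Mb with a coding exon had -0.94 and -1.12 in GSC-like nuclei, against -0.91 and -0.56 in CySC-like nuclei. The 357 bins without one had -0.88 and -1.44 in GSC-like nuclei, against -1.03 and -0.69 in CySC-like nuclei. The difference averaged 0.12 ± 0.16 (SD, n = 4) and was positive in 3 of 4 replicates, with an exact sign permutation p of 0.25 and 0.333 after adjustment. It was 0.036 (exact p = 0.875) where a bin needed 500 bases of coding exon, and 0.021 (exact p = 0.625) with medians over bins.

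Limma called more L than E signal in 246 bins of the stretch in GSC-like nuclei (49.2%; 12.4% of all 13746 bins), and more E than L in 35 (7.00%; 18.0% of all bins). In CySC-like nuclei it called more L in 60 bins (12.0%; 10.2% of all bins) and more E in 3 of the 500 (0.997% of all bins), each at an adjusted p under 0.05. Of the first 4 Mb alone, 235 bins (58.75%) were called late in GSC-like nuclei, against 52 (13.0%) in CySC-like nuclei. The share of late calls was well above the background in GSC-like nuclei and near it in CySC-like nuclei. By sign alone, 99.75% and 93.25% of bins of the first 4 Mb were below 0 in CySC-like replicates, against 49.5% and 39.2% of all bins. In GSC-like replicates 93.75% and 95.25% were below 0, against 46.1% and 40.7% of all bins. A call share near the background thus does not mean that CySC-like timing was ordinary there. In all, 39 bins were called late in both kinds, which is 15.9% of the GSC-like and 65.0% of the CySC-like late calls. The spread behind these counts is estimated from 4 profiles, and single replicates decide it. Without GSC-like replicate 2 the GSC-like calls numbered 5 in all (4 late, 1 early), without either CySC-like replicate 2, and without GSC-like replicate 1 304. Without either GSC-like replicate the CySC-like calls numbered 138, and without either CySC-like replicate 0. Late calls outnumbered early ones under every scaling tried, but their balance moved, since GSC-like late and early calls were 324 and 2 with equal medians and 343 and 6 with equal means over the autosomal arms.

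The mean timing of the stretch did not separate the 2 kinds of nuclei. It was -0.67 and -0.96 in GSC-like replicates, against -0.78 and -0.49 in CySC-like replicates, so the groups overlapped, and the difference of -0.18 had an exact permutation p of 0.667 where 2 against 2 cannot give less than 0.333. It was -0.56 with equal medians and -0.49 with equal arm means, with the same p. The median over the 102 coding genes was 0.31 and 1.55 in GSC-like nuclei, against 0.50 and 0.50 in CySC-like nuclei, with a difference of 0.43 and a p of 1 in the same test. The difference was 0.059 with equal medians, 0.13 with equal arm means and -0.19 without GSC-like replicate 2. None of the 102 genes passed the limma test between kinds (lowest adjusted p = 0.541), and none had an unadjusted limma p under 0.05. Both GSC-like replicates were below both CySC-like replicates in 147 bins (29.4%; 15.2% of all bins) and above them in 57 (11.4%; 25.7% of all bins). Limma put 18 bins at an unadjusted p under 0.05 (3.60% of the stretch, against 9.69% of all bins), 13 of them later and 5 earlier in GSC-like nuclei.

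After adjustment over all bins, 2 adjacent bins were called later in GSC-like nuclei, 2 of 500 (0.0946% of all bins) and none earlier (0.00727% of all bins). They are not described here. Over 16 alternatives the number of bins called between kinds ranged from 0 to 5, with 0 in 8 of them. It was 0 without CySC-like replicate 1 or without CySC-like replicate 2, in the fit with a replicate block, and with libraries scaled to equal medians or arm means. At an unadjusted limma p under 0.05 the bins without either of those replicates numbered 7 and 15, and those in the block fit 12.

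The stretch was later than the rest of its arm in all 4 replicates. The 500 bins minus the 2708 bins of the 3R arm were -0.79 and -1.39 in GSC-like nuclei, against -0.60 and -0.51 in CySC-like nuclei, a mean of -0.82 ± 0.40 (SD, n = 4), where scaling of the libraries cancels. The exact sign permutation gave p = 0.125, the smallest possible, and 0.25 after adjustment over 4 comparisons. GSC-like and CySC-like replicates did not overlap, with a difference of -0.53 (exact permutation p = 0.333, the smallest possible, and 1 after adjustment over 6 comparisons, of which 2 had separate groups).

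Against the pericentromeres of 2L and 3L the order differed between kinds of nuclei. The stretch minus the mean of those 2 regions was -0.35 and -0.59 in GSC-like nuclei, against 0.39 and 0.27 in CySC-like nuclei. It was thus later than they were in both GSC-like replicates and earlier in both CySC-like replicates, a difference between kinds of -0.80 (exact permutation p = 0.333, the smallest possible, and 1 after adjustment). Against 2L alone, whose 152 bins start at 22 Mb, it was -0.57 and -1.01 in GSC-like nuclei, against 0.27 and 0.05 in CySC-like nuclei. Against 3L alone, whose 504 bins start at 23 Mb, it was -0.14 and -0.18 in GSC-like nuclei, against 0.51 and 0.48 in CySC-like nuclei. With only the first 4 Mb of 3R taken, the value against 2L was -0.79 and -1.45 in GSC-like nuclei, against 0.03 and -0.14 in CySC-like nuclei, and the sign was no longer the same in both CySC-like replicates. Mean levels were -0.67 and -0.96 here, -0.10 and 0.04 on 2L and -0.53 and -0.79 on 3L in GSC-like nuclei. In CySC-like nuclei they were -0.78 and -0.49 here, -1.05 and -0.54 on 2L and -1.29 and -0.97 on 3L.

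**Figure D5:**
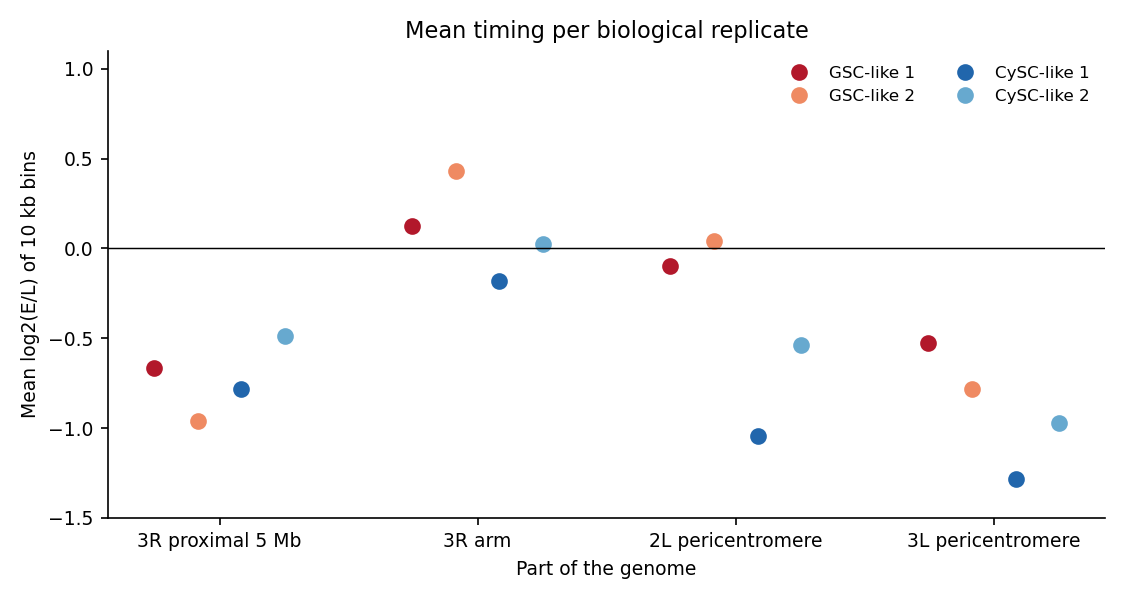
Mean log2(E/L) of 10 kb bins in the proximal 5 Mb of 3R, the 3R arm and the pericentromeres of 2L and 3L, 1 point per biological replicate. GSC-like replicates are at -0.67 and -0.96 on 3R and at -0.10 and 0.04 on 2L, whereas CySC-like replicates are at -0.78 and -0.49 on 3R and at -1.29 and -0.97 on 3L.

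All 4 fractions were measured in 3 replicates and show where signal peaked. In the first 4 Mb, the highest fraction was E, EM, ML and L in 2.0%, 7.5%, 62.25% and 28.25% of bins in GSC-like replicate 1. It was the same fractions in 2.50%, 8.25%, 30.25% and 59% of bins in GSC-like replicate 2. Most bins thus peaked in ML in the first and in L in the other GSC-like replicate. From the E to the L label, the 4 libraries of CySC-like replicate 2 were the highest in 2.75%, 78.75%, 0.750% and 17.75% of bins. Over all 500 bins the share peaking in E was 12.4% and 11.4% in GSC-like replicates and 11.0% in CySC-like replicate 2. In the 5th Mb, 54.0% and 47.0% of bins peaked in E in GSC-like replicates and 44.0% in CySC-like replicate 2.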

How the data were processed

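The authors deposited 1 table of RPKM values (reads scaled by window length and library size) for every library, in windows of 3 kb that start 1 kb apart. The unit was worked out from the values, of which 100% in full windows are whole multiples of what 1 read is worth (tolerance 0.1 of a read). Per the submitters' processing notes, Bowtie2 2.4.5 and dm6 were used, and chromosome lengths equal the Release 6 reference. Genes are from Ensembl release 115.

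Windows were averaged into 10 kb bins, libraries rescaled to equal means, 0.1 RPKM added and log2 taken, which understates differences of dim bins. A filter removed 12 of 13758 bins, those at 0 in 4 or more of the 8 libraries used. Limma 3.58.1 (R 4.3.3; lmFit, eBayes with a variance trend) was fitted to log2(E/L) of the 4 biological replicates over all bins, with Benjamini-Hochberg adjustment and a threshold of 0.05. Tests on region means were exact permutations (Python 3.11.15, numpy 2.4.6, pandas 2.3.3, scipy 1.17.1). The fit was tested on simulated data. By the series' design each replicate's nuclei were split into the fractions, which pairs E with L. Deviations of E and L within a replicate correlated by 0.52 in GSC-like and -0.06 in CySC-like nuclei. Nothing says that a number is shared between the 2 kinds.

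Genes named are the 10 longest coding genes starting below 5 Mb; Pzl, Myo81F, Parp (annotated as Parp1), Gfat1 and Alg-2; and, of those starting below 4 Mb, the 3 earliest and 3 latest. Ir81a was listed too but does not start here as a coding gene in this annotation. Other named places are the 3 latest and 3 earliest stretches of 100 kb and each Mb. The members and lists were chosen with earlier results of these data known. Alternatives covered scaling, pseudocount, filter, bin size, trend, blocks, boundaries, medians and leaving out replicates. Added after seeing the data were RPKM as deposited, voom on recovered reads, weakly repeated bins, crossed blocks and other boundaries. For CySC-like replicate 1, EM and ML are not used here. Some sequence items and the results that need them, the run of bins called between kinds included, are not reported here.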

Additional observations from a re-analysis of the deposited data

Results flagged for a closer look

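Both GSC-like replicates of Alg-2 were above 0 and both CySC-like replicates below 0, a difference of 1.01 that did not pass the limma test (adjusted p = 0.626). CySC-like replicate 2 was practically at 0 (-0.0045), and the difference was 0.32 without CySC-like replicate 1 and 1.71 without CySC-like replicate 2.

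The stretch minus the mean of the 2L and 3L pericentromeres was below 0 in both GSC-like and above 0 in both CySC-like replicates, a difference of -0.80. The exact permutation p of 0.333 is the smallest that 2 against 2 replicates allow.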

How the results depend on the processing

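The direction of the stretch minus the 3R arm, of the first 4 Mb minus the 5th Mb and of the mean between kinds of nuclei was the same under every alternative run. Leaving out 1 replicate in turn gave -0.93 to -0.63, -1.49 to -1.07 and -0.33 to -0.03 for these. The stretch minus the 2L and 3L pericentromeres averaged -0.07 over 4 replicates and ran from -0.23 to 0.10 when 1 was left out, reaching 0.02 and 0.10 when GSC-like replicate 1 or 2 was the one left out. The coding gene median between kinds ran from -0.19 (without GSC-like replicate 2) to 1.05, and the difference between bins with and without a coding exon from 0.061 to 0.19.

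Counts of called bins depended most on the replicates. Between kinds, 2 bins were called, and 0 to 5 when 1 replicate was left out. The count was 0 without a variance trend, with equal medians, equal arm means, 50 kb bins and voom on recovered reads, and 1 with a pseudocount of 1 or RPKM as deposited. At an unadjusted limma p under 0.05 these 0 counts stood at 18, 44, 46, 1 and 21. With replicate number across kinds as a replicate block the count was 0 (12 at an unadjusted p), and with crossed numbers 3. The deviations of same-numbered replicates correlated by -0.25 over all bins and by 0.16 over the 500 bins of the stretch, and nothing in the labels pairs the kinds. GSC-like calls, 281 in the main setting, ran from 2 to 304 when 1 replicate was left out, and were 3 with no replicate block, 61 of 100 with 50 kb bins and 172 of 328 in bins with under 25% local repeats. For calls within a kind, no replicate block means that E and L were taken as unpaired groups. The main setting pairs them within each replicate through log2(E/L). Late and early GSC-like calls were 246 and 35 in the main setting and 180 and 41 with RPKM as deposited. CySC-like calls, 63 in the main setting, ran from 0 to 138 when 1 was left out, and were 0 with no replicate block (63 at an unadjusted p), 12 with 50 kb bins, 30 as deposited and 32 in weakly repeated bins. The cause was not tested.

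Equal medians gave 10.9% and 6.8% of bins highest in GSC-like E and EM, and equal arm means 10.1% and 7.1%. For GSC-like ML and L the main setting gave a mean of 40.8% and 36.7%. Equal medians gave 34.2% and 48.1% for ML and L, and equal arm means 37.4% and 45.4%, so their order depended on the scaling. Equal arm means gave 70.0%, 4.4% and 14.0% for CySC-like EM, ML and L. Differences of single genes between kinds changed sign without GSC-like replicate 2 for Pzl (0.26), Parp1 (-0.059), CG41128 (-0.18), CG34357 (-0.0057), smash (-0.87), atms (0.052) and ctrip (-0.22). They changed without CySC-like replicate 1 for Pzl (0.21) and Cdep (0.22), without CySC-like replicate 2 for smash (-0.040), and without GSC-like replicate 1 for CG42402 (-0.0021). With equal medians they changed for CG41128 (-0.16), CG42402 (-0.12), CG34357 (-0.11), smash (-0.17) and ctrip (-0.050). With equal arm means they changed for CG41128 (-0.094), CG42402 (-0.049), CG34357 (-0.046) and smash (-0.10). When 1 replicate was left out, the other end of the range was -0.46 for Pzl, 0.87 for Parp1, 0.62 for CG41128, 0.54 for CG42402, 0.52 for CG34357, 1.27 for smash, -1.02 for atms and 0.86 for ctrip. None of these gene differences passed the test in the main setting. Depth limits GSC-like replicate 2 most, whose ML library had a median of 37.8 reads per bin.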
